A study of Mus musculus with 12 samples.

Results

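The genes described are 8 named inflammatory and anti-inflammatory cytokine genes, Il1a, Il1b, Il1rn, Il1r2, Il18, Il6, Tnf and Il10, out of 24445 gene symbols counted. They were chosen by name, with earlier results of these data known, and all 8 were among the 14608 genes with enough counts to be tested. Cardiac macrophages (Mφ) that carried CD14 and CD64 were sorted by FACS from 12 C57BL6/J mice, and the RNA of each mouse was sequenced as 1 library. Ct mice (n = 4) carried a saline pump for 14 or 28 days, and which of these times applied to each Ct mouse is not stated in the labels or methods. ECH mice (n = 4, early concentric hypertrophy) received isoproterenol, an agonist of β-adrenergic receptors, at 30 mg/kg/day for 14 days. HF mice (n = 4, heart failure) received the same dose for 28 days. All mice carried a pump, those of the study were male adults, and the labels give no ages. Libraries held 88466559 to 111180291 counts, and values below are CPM, the reads of a gene relative to the scaled library total (TMM scaling), unless another scale is named. The mRNAs of Cd14 and Fcgr1, the gene of CD64, and of 6 other Mφ markers summed to 7616 to 11134 CPM over the 12 libraries. In bulk RNA of sorted cells, fewer cells that express a gene and less RNA per cell cannot be told apart.

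The library numbers in the labels each occurred in 2 libraries and ran from 1 to 6, from which 2 library sets were inferred. As inferred, set A held the 4 Ct libraries with ECH 1 and 2, and set B held the 4 HF libraries with ECH 3 and 4. No label says what a set is, and Ct and HF share no set. Ct and HF Mφ can therefore be compared apart from the sets only through the ECH libraries, the only group with libraries in both, under the assumption that a set shifts every group alike.

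Il1a and Il1b encode the agonists IL-1α and IL-1β, which signal through the receptor IL-1R1 and its partner IL-1RAP. IL-1β is made as a precursor that is cut by caspase-1 after an inflammasome has assembled, so its mRNA level is not the level of the active cytokine. Il1rn encodes the receptor antagonist, which occupies IL-1R1 without signalling, and Il1r2 encodes a decoy receptor that binds IL-1 and passes on no signal. IL-18 is a relative of IL-1 that also needs caspase-1, and IL-18BP neutralises it. IL-6 signals through IL-6Rα and gp130 to STAT3, TNF signals through TNFR1 and TNFR2, and IL-10 restrains the output of inflammatory cytokines by Mφ. Mφ transcribe several of these genes quickly when NF-κB or AP-1 is activated, and many of the mRNAs are short-lived.

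The genes lie on 5 chromosomes of GRCm38 (GENCODE M21 annotation). Il1a (chr2:129299610-129309972, minus strand) and Il1b (chr2:129364570-129371139, minus strand) are neighbours, and Il1rn (chr2:24336853-24351494, plus strand) is elsewhere on the same chromosome. Il1r2 (chr1:40074079-40125231) and Il10 (chr1:131019845-131024974) are on the plus strand of chromosome 1. Il6 (chr5:30013114-30019981, plus strand), Il18 (chr9:50554827-50581840, plus strand) and Tnf (chr17:35199381-35202007, minus strand) are each alone. Exons of Il1b share 25 bp with those of the antisense gene Il1bos, and exons of Il1a share 222 bp with those of the antisense gene Gm14023, which can matter because the strand setting of the counting is not stated in the labels or methods.

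The 250 bases before the annotated start sites of Il1b, Il1rn and Il6 are shown because Il6 had the largest differences and Il1b and Il1rn form the ratio described below. The sequences are RefSeq sequences of build GRCm38.p6, read 5′ to 3′ on the strand of the gene. They cover chr2:129371140-129371389 for Il1b, chr2:24336610-24336859 and chr2:24345041-24345290 for 2 of the 3 listed starts of Il1rn, and chr5:30012864-30013113 for Il6. Capitals mark matches, on either strand, to the TATA box (TATAAA), the AP-1 site (TGANTCA), the core of the cAMP response element (TGACG) and the NF-κB consensus.
Il1b: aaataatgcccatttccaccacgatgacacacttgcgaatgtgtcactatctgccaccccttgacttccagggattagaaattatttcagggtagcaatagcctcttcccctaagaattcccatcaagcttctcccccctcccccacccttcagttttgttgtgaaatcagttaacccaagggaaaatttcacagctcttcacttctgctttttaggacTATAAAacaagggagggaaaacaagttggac
Il1rn start 1: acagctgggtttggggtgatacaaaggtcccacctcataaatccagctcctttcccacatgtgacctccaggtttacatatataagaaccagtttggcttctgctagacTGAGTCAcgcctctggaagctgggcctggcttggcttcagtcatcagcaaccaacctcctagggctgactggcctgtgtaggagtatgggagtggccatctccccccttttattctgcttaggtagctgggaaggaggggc
Il1rn start 2: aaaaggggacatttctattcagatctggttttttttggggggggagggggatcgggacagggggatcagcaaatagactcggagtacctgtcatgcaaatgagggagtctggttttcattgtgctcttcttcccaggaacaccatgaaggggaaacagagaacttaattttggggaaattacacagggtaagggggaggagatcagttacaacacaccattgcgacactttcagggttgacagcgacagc
Il6: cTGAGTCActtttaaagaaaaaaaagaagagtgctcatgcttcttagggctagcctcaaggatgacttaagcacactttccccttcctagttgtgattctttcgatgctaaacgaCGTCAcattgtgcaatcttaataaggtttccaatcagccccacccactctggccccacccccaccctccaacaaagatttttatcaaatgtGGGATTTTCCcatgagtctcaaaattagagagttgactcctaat

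The Il1b window held TATAAA at 31 to 26 bases before the start and none of the other motifs. The window of the upstream Il1rn start held 1 AP-1 match, and that of the downstream start held no match. The counts are summed over a gene and do not show which Il1rn start was used. The Il6 window held an AP-1 match, a TGACG match on the opposite strand and the only NF-κB match among 9 windows, which belonged to 7 of the 8 genes. Of all 32851 windows of the same length, 12.4% held the TATA box motif, 6.75% the AP-1 motif, 17.8% the cAMP response core and 7.25% the NF-κB consensus. The full cAMP response element TGACGTCA was in 1.55% of all windows and in none of the 9.

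None of the 8 genes was called in any comparison by the main test, the quasi-likelihood test of edgeR at an FDR under 0.05 and a fold of at least 2. The same rule called 0.356% of all genes tested between ECH and Ct Mφ, 0.377% between HF and Ct Mφ and 0 between ECH and HF Mφ. At an unadjusted p under 0.05, with no fold limit, 2 of the 8 genes differed between ECH and Ct Mφ (Il1b and Il6), where 11.9% of all genes did. Between HF and Ct Mφ 3 of 8 did (Il1rn, Il1r2 and Il6) beside 16.1% of all genes, and between ECH and HF Mφ 0 of 8 beside 7.98%. With a fold of at least 2 as well, 1 of 8 (Il6) differed between ECH and Ct Mφ beside 3.71% of all genes, and the same 3 of 8 between HF and Ct Mφ beside 5.12%. With counts so few, these shares are descriptions. Il1rn was the only one of the 8 genes whose libraries did not overlap between groups, and this was between HF and Ct, where 9.04% of all genes tested did not overlap. None of the 8 was without overlap between ECH and Ct Mφ or between ECH and HF Mφ, where 7.97% and 6.92% of all genes were.

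**Figure D1:**
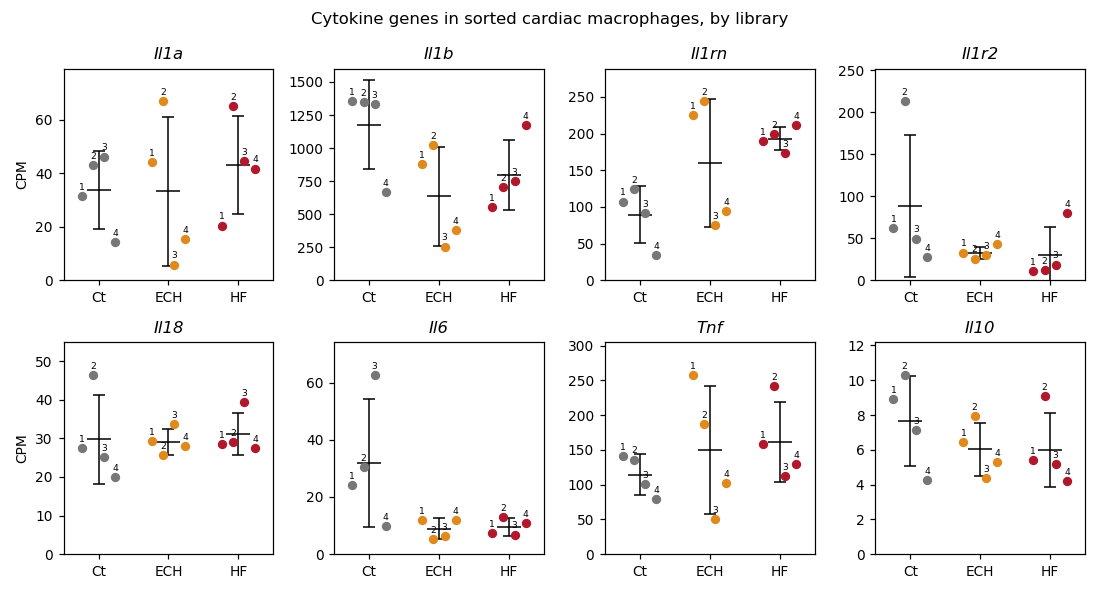
CPM of the 8 genes in every library (linear axes from 0), by group, with the replicate number above each point and the mean and SD of the group (n = 4) in black. Ct 4 was the lowest Ct library for all 8 genes, ECH 3 and 4 lay below ECH 1 and 2 for Il1a, Il1b, Il1rn and Tnf, and 3 of the 4 Ct libraries stood above all others for Il6.

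Il1b was by far the most abundant of the 8 genes. By mean CPM its rank among all 24445 symbols was 86 in Ct, 194 in ECH and 161 in HF Mφ. Its level was 1357, 1351, 1333 and 669 CPM in Ct 1 to 4. It was 882, 1022, 255 and 382 CPM in ECH 1 to 4 and 553, 702, 750 and 1171 CPM in HF 1 to 4. Of the Ct libraries 3 were above every other library, and Ct 4 lay within the range of the iso-treated mice. The mean was 1178 ± 339 CPM (SD, n = 4) in Ct, 635 ± 374 in ECH and 794 ± 265 in HF Mφ, but neither difference passed the test of edgeR over all genes. On the log2 scale the difference was -0.89 ± 0.40 (SE) for ECH against Ct (FDR 0.400, edgeR) and -0.57 ± 0.40 for HF against Ct (FDR 0.520, edgeR). Without Ct 4 the values were -1.08 (FDR 0.289) and -0.76 (FDR 0.396), within ranges of FDR over all alternatives of 0.183 to 0.951 and 0.320 to 0.770. Within set A the ECH difference shrank to -0.31 (FDR 0.951), and with the library set as a covariate the HF difference turned to 1.01 (FDR 0.320).

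Il1bos, the antisense transcript of Il1b, was counted at a much lower level, and there were 76.6 to 133 Il1b counts per Il1bos count in Ct, 62.6 to 149 in ECH and 96.7 to 126 in HF libraries. These ranges overlap, so the sense to antisense ratio did not separate the groups.

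Il1a was far lower than Il1b and had the widest relative spread of the 8 genes in ECH Mφ. It was counted at 31.6, 43.0, 46.3 and 14.3 CPM in Ct 1 to 4, at 44.3, 67.1, 5.87 and 15.6 CPM in ECH and at 20.4, 65.2, 44.5 and 41.8 CPM in HF. The 3 groups overlapped throughout. Il1a differed on the log2 scale by -0.02 ± 0.60 (SE) for ECH against Ct (FDR 0.994, edgeR) and 0.35 ± 0.60 for HF against Ct (FDR 0.823). The 95% interval of the ECH difference, from -1.32 to 1.28, holds changes of more than 2-fold in both directions. With the library set as a covariate the HF difference was 2.73 (FDR 0.0916, in a range of 0.0916 to 0.974 over all alternatives). Il1b counts per Il1a count were 28.8 to 46.9 in Ct, 15.2 to 43.5 in ECH and 10.8 to 28.0 in HF, and the lowest Ct library was just above the highest HF library. A ratio to Il1a that was lower in every HF than in every Ct library was found for 1.81% of the other genes tested, and this is a description.

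Il1rn, the antagonist, was higher on average in the iso-treated groups, opposite to Il1b. Its level was 107, 124, 92.1 and 34.6 CPM in Ct 1 to 4. It was 225, 245, 75.0 and 93.9 CPM in ECH and 189, 199, 173 and 212 CPM in HF. Every HF library was above every Ct library, whereas ECH was split, with ECH 1 and 2 above all Ct libraries and ECH 3 and 4 inside their range. The log2 difference was 1.11 ± 0.40 (SE) for HF against Ct, or 2.16-fold (FDR 0.213, edgeR), and 0.84 ± 0.40 for ECH against Ct (FDR 0.433). Neither passed the test over all genes. Within set A, ECH 1 and 2 differed from Ct by 1.39 (FDR 0.777, in a range of 0.226 to 0.777 over all alternatives).

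The call for Il1rn depended on how the library sets were handled. With the set as a covariate, which leaves the comparison of HF with Ct to rest on the ECH libraries that bridge the sets, the log2 difference was 2.59 (FDR 0.0291), in a fit that called 1.42% of all genes. Over all alternatives its FDR ran from 0.0291 to 0.333. Within set B alone, ECH 3 and 4 differed from HF by -1.20 on the log2 scale (FDR 0.00696, edgeR), in a fit that called 2.49% of all genes, against a difference of -0.28 ± 0.40 (FDR 0.938) between all 4 ECH and 4 HF libraries. Over all alternatives the FDR of this difference ran from 0.00696 to 1. Without Ct 4 the HF difference was 0.84.

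The balance of agonist and antagonist mRNA separated Ct from both iso-treated groups in every library. Ct Mφ held 12.6, 10.9, 14.5 and 19.3 Il1b counts per Il1rn count in libraries 1 to 4. ECH Mφ held 3.92, 4.18, 3.40 and 4.07, and HF Mφ held 2.92, 3.53, 4.33 and 5.53. The lowest Ct library, at 10.9, was above the highest of the 8 iso-treated libraries, at 5.53, and the medians were 13.6 in Ct, 3.99 in ECH and 3.93 in HF.

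The ratio did not follow the spread of its parts. ECH 1 and 2 had 2.78-fold more Il1rn and 2.99-fold more Il1b than ECH 3 and 4, yet the 4 ECH libraries lay between 3.40 and 4.18. Ct 4, with the lowest Il1b and Il1rn of the Ct group, had the highest ratio. Within set A, ECH 1 and 2 (3.92 and 4.18) were below all 4 Ct libraries, and within set B, ECH 3 and 4 (3.40 and 4.07) lay inside the HF range. The ratio was examined because these genes encode an agonist and its antagonist, after their values were known, and it was given no test.

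A ratio to Il1rn that was higher in every Ct library than in all 8 iso-treated libraries was found for 4.39% of the 14607 other genes tested. Among the other 7 cytokine genes it was found for 4, namely Il1b, Il1r2, Il6 and Il10. All 4 ratios share the Il1rn counts as their denominator and are not independent of each other.

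**Figure D2:**
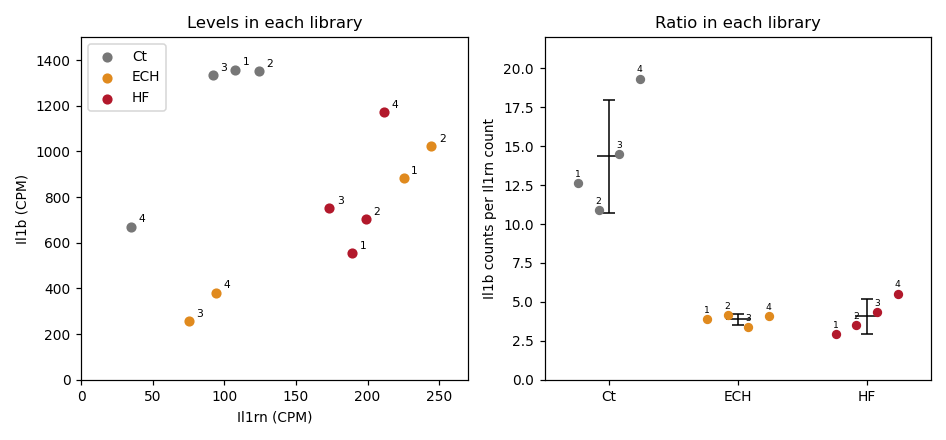
Il1b against Il1rn in CPM, 1 point per library with its replicate number (left), and Il1b counts per Il1rn count in each library with the mean and SD of the group, n = 4 (right). The Ct libraries lie at 10.9 to 19.3 Il1b counts per Il1rn count and the 8 iso-treated libraries at 2.92 to 5.53.

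Il1r2, the decoy receptor, was lower on average in the iso-treated groups, with 1 library in each of Ct and HF far above the rest. Its level was 62.5, 214, 49.7 and 27.4 CPM in Ct 1 to 4, 33.0, 25.8, 30.2 and 42.7 CPM in ECH and 11.4, 12.1, 18.8 and 79.6 CPM in HF. Ct 2 and HF 4 were the high libraries, and the groups overlapped. Its log2 difference was -1.54 ± 0.67 (SE) for HF against Ct (FDR 0.288, edgeR) and -1.42 ± 0.67 for ECH against Ct (FDR 0.429). Without Ct 2 these values were -0.61 (FDR 0.667) and -0.50 (FDR 0.877), and without HF 4 the HF difference was -2.65 (FDR 0.120), within ranges of FDR over all alternatives of 0.0628 to 0.825 for HF and 0.299 to 0.947 for ECH.

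Neutrophils express Il1r2 strongly, and some markers of neutrophils were high in the same libraries. The 12 markers summed to 449 to 1911 CPM in Ct, 209 to 773 in ECH and 166 to 1423 in HF libraries. The sum was highest in Ct 2, at 1911 CPM, and HF 4, at 1423 CPM. In Ct 3 it was 1383 CPM, near that of HF 4, while Il1r2 was at 49.7 CPM. Ct 1 had a sum of 789 CPM with Il1r2 at 62.5 CPM. S100a8 was at 474 CPM in Ct 2 and 370 CPM in HF 4, beside 15.1 to 340 CPM in the other libraries. Ly6g, a defining neutrophil marker, was at 2.76 CPM in Ct 2, 1.91 CPM in HF 4, 1.86 CPM in Ct 3 and 2.30 CPM in ECH 4 and at 0 in 3 libraries. The granule genes Camp, Ltf and Ngp were high in Ct 2 but not in HF 4. Camp and Ltf were higher in Ct 2 than in any other library, and Ngp was higher there than in any other Ct library. The levels of Camp, Ltf and Ngp were 0, 0.0626 and 1.40 CPM in HF 4. In ECH 4 they were 12.2, 41.9 and 128 CPM, where Il1r2 was at 42.7 CPM. Of the 12 markers 1 was higher on average in ECH than in Ct and 0 in HF. At an unadjusted p under 0.05, 3 and 4 were lower, beside 11.9% and 16.1% of all genes in either direction, and none was called. Without Ct 2 and HF 4 the Il1r2 difference was -1.72 for HF (FDR 0.0628) and -0.50 for ECH (FDR 0.625), and 0 of the 8 genes was called in any comparison. The sort took live single CD11b+ cells that carried CD14 and CD64. Neutrophils carry CD11b but little CD64, and how fully the gate left out neutrophils and B cells is not stated. The part of neutrophil RNA in the level of Il1r2 was not tested.

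Il18 was nearly the same in all groups. Its level was 27.4, 46.5, 25.1 and 19.9 CPM in Ct 1 to 4, 29.4, 25.7, 33.7 and 27.9 CPM in ECH and 28.6, 29.1, 39.3 and 27.5 CPM in HF. Apart from Ct 2, Ct 4 and HF 3, the libraries lay between 25.1 and 33.7 CPM. Differences on the log2 scale were -0.03 ± 0.24 (SE) for ECH against Ct, with a 95% interval from -0.54 to 0.49 that excludes a 2-fold change in either direction. For HF against Ct it was 0.07 ± 0.24, with an interval from -0.45 to 0.58 (FDR 0.982 and 0.926, edgeR).

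Il6 showed the largest differences of the 8 genes, toward lower levels in both iso-treated groups. Its level was 24.2, 30.4, 62.7 and 9.71 CPM in Ct 1 to 4. It was 11.9, 5.37, 6.29 and 12.05 CPM in ECH and 7.23, 13.1, 6.86 and 10.8 CPM in HF. Ct 1, 2 and 3 were above all 8 iso-treated libraries, and Ct 4 was inside their range. Il6 differed on the log2 scale by -1.83 ± 0.48 (SE) for ECH against Ct, or 3.57-fold lower (FDR 0.126, edgeR), and -1.74 ± 0.48 for HF against Ct, or 3.35-fold lower (FDR 0.127). Between ECH and HF Mφ it was -0.09 ± 0.46 (FDR 0.994). These comparisons share the Ct libraries.

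Whether Il6 was called depended on the tool. DESeq2 called it in ECH against Ct (FDR 0.00515) and in HF against Ct (FDR 0.00866), where it called 1.74% and 2.32% of all genes. The likelihood ratio test of edgeR also called it, with an FDR of 0.0117 and 0.0179, beside 1.49% and 1.87% of all genes. Over all alternatives the FDR ran from 0.00515 to 0.924 for ECH and from 0.00866 to 0.334 for HF, and the log2 difference was negative in every one. Leaving out Ct 3 brought it to -1.27 for ECH (FDR 0.197) and -1.17 for HF (FDR 0.156), and leaving out Ct 4 to -2.13 (FDR 0.0631) and -2.04 (FDR 0.0711). Within set A, ECH 1 and 2 differed from Ct by -1.89 (FDR 0.924, edgeR with 6 libraries), beside -1.83 over all libraries. The part of the library set in this difference was not tested.

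Genes that are induced while tissue is digested to free cells had higher means in Ct, with sums that overlapped between Ct and ECH. The 14 dissociation genes summed to 39724 to 53514 CPM in Ct, 17425 to 40936 in ECH and 19154 to 33117 in HF libraries. All 14 were lower on average in ECH and in HF than in Ct, 9 of them at an unadjusted p under 0.05 in each comparison (beside 11.9% and 16.1% of all genes), and none was called. None of the 14 was at 0 in any library. Nr4a1, an early response gene of that list, was among the 2 genes whose levels most resembled those of Il1b over the 12 libraries. The part of the digestion in the levels of Il6 and Il1b was not tested.

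**Figure D3:**
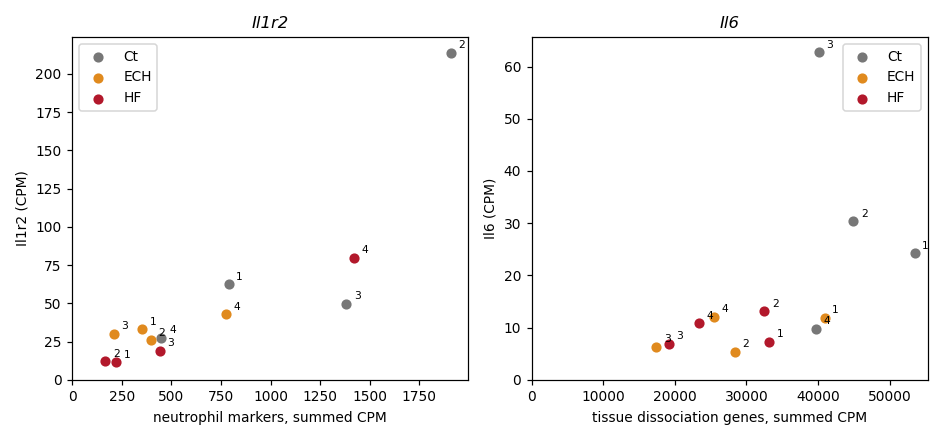
Il1r2 against the summed CPM of 12 neutrophil markers (left) and Il6 against the summed CPM of 14 dissociation genes (right), 1 point per library with its replicate number, all axes linear from 0. Ct 2 and HF 4 hold the highest values of both measures on the left, where Ct 3 has a marker sum of 1383 CPM with Il1r2 at 49.7 CPM. Ct 1, 2 and 3 are the highest in Il6 on the right. There Ct 3 (62.7 CPM of Il6), Ct 4 (9.71 CPM) and ECH 1 (11.9 CPM) have similar sums of 40091, 39724 and 40936 CPM.

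Tnf did not differ between groups beyond the spread of its libraries. Its level was 141, 136, 100.7 and 79.1 CPM in Ct 1 to 4, 258, 187, 50.5 and 102 CPM in ECH and 159, 242, 112 and 130 CPM in HF. The highest and the lowest library were both from ECH mice. Tnf differed on the log2 scale by 0.39 ± 0.40 (SE) for ECH against Ct, with a 95% interval from -0.49 to 1.27, and 0.49 ± 0.40 for HF against Ct, from -0.38 to 1.37 (FDR 0.759 and 0.598, edgeR). With the library set as a covariate the HF difference was 2.03 (FDR 0.0662, in a range of 0.0662 to 0.855 over all alternatives). Within set A the ECH difference was 0.96 (FDR 0.760, in a range of 0.500 to 0.996).

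Il10, the anti-inflammatory interleukin of the group, was near the lower end of the 8 genes. Its level was 8.90, 10.3, 7.12 and 4.27 CPM in Ct 1 to 4, 6.44, 7.96, 4.38 and 5.29 CPM in ECH and 5.44, 9.09, 5.20 and 4.21 CPM in HF. These values rest on 441 to 985 counts per library, and the 3 groups overlapped. The log2 difference was -0.35 ± 0.35 (SE) in both comparisons with Ct (FDR 0.753 for ECH and 0.677 for HF, edgeR), with a 95% interval from -1.11 to 0.42 for ECH. Tnf counts per Il10 count were 13.2 to 18.5 in Ct, 11.5 to 40.1 in ECH and 21.6 to 30.8 in HF, so every HF library was above every Ct library. A ratio to Il10 that was higher in every HF than in every Ct library was found for 1.45% of the other genes tested, and this is a description.

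No difference between ECH and HF Mφ passed the test for any of the 8 genes. The log2 differences of ECH from HF ran from -0.37 for Il1a to 0.11 for Il1r2, all with an FDR of at least 0.917 (edgeR). The 95% interval for Il18, from -0.61 to 0.42, excludes a 2-fold change, while that for Il1r2, from -1.32 to 1.55, does not. Within set B, ECH 3 and 4 differed from HF by more, at -2.00 for Il1a (FDR 0.0801), -1.32 for Il1b (FDR 0.0539), -1.07 for Tnf (FDR 0.156) and -1.20 for Il1rn, the only one called. Over all alternatives the FDRs ran from 0.0801 to 1 for Il1a, from 0.0539 to 1 for Il1b and from 0.150 to 1 for Tnf.

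**Figure D4:**
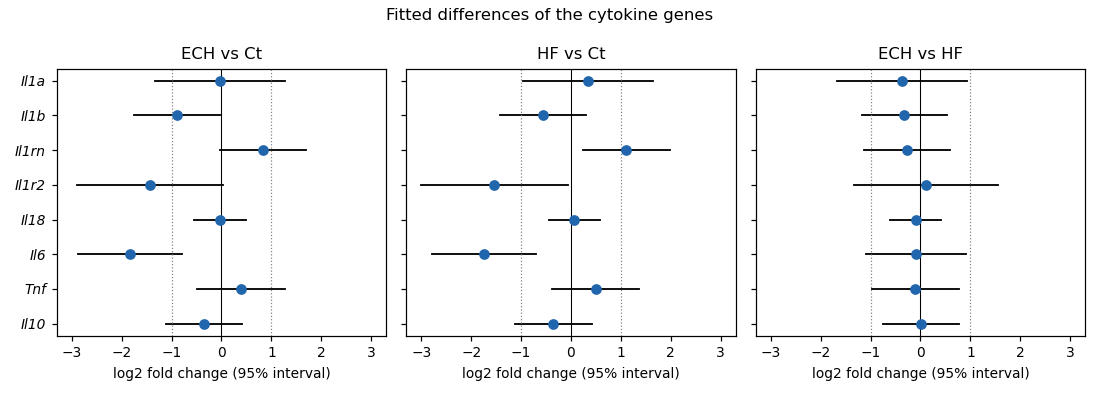
Log2 fold change of the 8 genes in the 3 comparisons (edgeR, all 12 libraries in 1 fit), with 95% intervals as lines and dotted lines at 2-fold. Against Ct, Il6 is farthest from 0, at -1.83 in ECH and -1.74 in HF, and Il1rn is on the opposite side, at 0.84 and 1.11.

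Within the ECH group, Il1a, Il1b, Il1rn and Tnf differed between the libraries of the 2 sets at an unadjusted p under 0.05, beside 9.18% of all genes. All 4 were lower in ECH 3 and 4 than in ECH 1 and 2. On the log2 scale they differed by -2.38 ± 0.63 (SE) for Il1a (55.7 against 10.7 CPM on average), -1.58 ± 0.38 for Il1b, -1.48 ± 0.41 for Il1rn and -1.54 ± 0.41 for Tnf, with FDRs of 0.113 to 0.177 (edgeR, library set term). Il10 differed by -0.57 ± 0.49 (FDR 0.913), with both set B libraries below both set A libraries, and Il6, Il18 and Il1r2 differed by 0.09, 0.16 and 0.31. The summed dissociation genes split the same way, at 40936 and 28337 CPM in ECH 1 and 2 and 17425 and 25486 CPM in ECH 3 and 4. Among the 8 Mφ markers, Cx3cr1 was at 126 and 221 CPM in ECH 1 and 2 and 50.2 and 23.9 CPM in ECH 3 and 4. Fcgr1 was at 140 and 182 against 104 and 71.5 CPM, and Adgre1 at 1320 and 1311 against 755 and 579 CPM. Mertk went the other way, at 183 and 174 against 496 and 414 CPM. All 8 markers, of which Csf1r and Cd14 had the highest levels, summed to 9149 to 11134 CPM in the 4 libraries. The part of the dissociation genes and markers in the split of the 4 genes was not tested. None of the 8 cytokine genes was called in this contrast, which was added after the data were seen and called 0.397% of all genes.

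Levels of different genes were compared per kilobase of exon. In Ct Mφ the order of the means was Il1b, Tnf, Il1r2, Il18, Il1a, Il1rn, Il6 and Il10, from 618 to 5.84 CPM per kb. Il1b was apart from Tnf, the next gene, at 69.7 ± 18.03 CPM per kb (SD, n = 4), and was higher in 4 of 4 libraries. Each later neighbour in this order overlapped with the next in its range. In HF Mφ the order was Il1b, Tnf, Il1rn, Il18, Il1a, Il1r2, Il10 and Il6. There Il1b (416 ± 139 CPM per kb), Tnf (98.1 ± 35.2) and Il1rn (34.9 ± 2.92) had ranges that did not overlap. In ECH Mφ the order was Il1b, Tnf, Il1rn, Il18, Il1r2, Il1a, Il10 and Il6, and only Il18 and Il1r2 were neighbours with separate ranges. Il1rn stood at place 6 in Ct and 3 in both iso-treated groups, and Il6 at place 7 in Ct and 8 in both. The places depend on the exon length used, which for Il1rn was 5.54 kb over all exons of 6 transcripts. Which of these transcripts were present is not known. Before division by length, Il1rn was at 89.5 CPM and Il1r2 at 88.4 CPM on average in Ct Mφ.

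**Figure D5:**
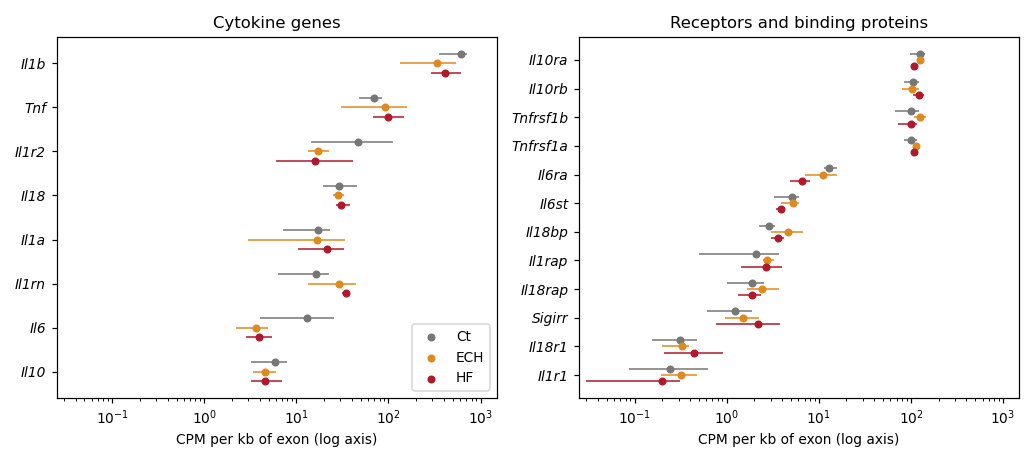
Mean CPM per kb of exon (points, log axes) and the range over 4 libraries (lines) for the 8 cytokine genes (left) and 12 receptor and binding protein genes (right), by group. Il1b is at 618 CPM per kb in Ct Mφ and the receptor Il1r1 at 0.241, and the HF line of Il1r1 is cut at the left edge because 1 library held no count.

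The receptors for these cytokines differed far more between genes than between groups. Per kilobase of exon, the IL-10 receptor genes Il10ra (125 ± 19.1 CPM per kb, SD, n = 4) and Il10rb (104 ± 15.2) and the TNF receptor genes Tnfrsf1b (101.4 ± 23.8) and Tnfrsf1a (99.4 ± 14.1) led in Ct Mφ. The IL-6 receptor genes Il6ra (12.8 ± 1.99) and Il6st, which encodes gp130 (5.13 ± 1.28), were lower, followed by Il18bp (2.91 ± 0.494), Il1rap (2.08 ± 1.36), Il18rap (1.87 ± 0.687), Sigirr, a negative regulator of IL-1 family signalling (1.25 ± 0.521), and Il18r1 (0.311 ± 0.149). Il1r1, the signalling receptor of IL-1, had the lowest mean, at 0.241 ± 0.256 CPM per kb in Ct, 0.318 ± 0.121 in ECH and 0.199 ± 0.137 in HF. Its range overlapped that of Il18r1 in every group. The mRNA of the IL-1 agonists was thus counted in libraries with little mRNA of their signalling receptor, and bulk RNA does not show which cells held either.

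None of the 12 receptor and binding protein genes was called. Il6ra was the receptor gene that differed most, at 135, 98.8, 97.9 and 110 CPM in Ct 1 to 4, 61.4, 72.1, 118 and 137 CPM in ECH and 61.6, 69.8, 41.8 and 55.6 CPM in HF. Every HF library was below every Ct library, while ECH 1 and 2 lay low and ECH 3 and 4 high. Its log2 difference was -0.95 ± 0.24 (SE) for HF against Ct (FDR 0.113, edgeR) and -0.19 ± 0.24 for ECH against Ct (FDR 0.813). Il18bp, the binding protein that neutralises IL-18, was the only receptor list gene at an unadjusted p under 0.05 in ECH, beside 11.9% of all genes. Its log2 difference was 0.66 ± 0.26 (FDR 0.334). The list median was 0.25 in ECH and 0.06 in HF on the log2 scale, beside 0.01 and -0.01 over all genes tested.

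Genes for the maturation, release and signalling of the cytokines were not called either. Of 10 genes for maturation and release, 1 was lower in ECH and 2 were lower in HF at an unadjusted p under 0.05, and 0 were higher. In either direction, 11.9% of all genes tested reached that p in ECH and 16.1% in HF against Ct, so these counts are descriptions. Nlrp3, the sensor of the inflammasome that activates caspase-1, was at 79.9 CPM in Ct and 46.7 CPM in HF Mφ on average, a log2 difference of -0.77 ± 0.32 (SE, FDR 0.261, edgeR). Casp4, which encodes the caspase that senses intracellular lipopolysaccharide, differed by -0.79 in ECH (FDR 0.297) and -0.81 in HF (FDR 0.215). Of 15 signalling genes, 2 were higher and 1 lower in ECH and 2 were lower in HF at that p, beside the same 11.9% and 16.1% of all genes. Stat3, the transcription factor below gp130, was at 0.58 ± 0.17 in ECH (FDR 0.175). Irak2, a kinase below IL-1R1, was at -0.67 ± 0.17 in HF (FDR 0.0984). Socs1, a feedback inhibitor of JAK kinases, had the largest difference of the list, at -1.03 in ECH (FDR 0.324) and -0.87 in HF (FDR 0.311).

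Of 7 genes for factors that control the decay of cytokine mRNAs, 5 had a lower mean in ECH and 6 in HF than in Ct, and none was called. Of the 7, 3 were lower in ECH and 4 in HF at an unadjusted p under 0.05, and 0 were higher, beside 11.9% and 16.1% of all genes in either direction. The list medians were -0.52 and -0.51 on the log2 scale, beside 0.01 and -0.01 over all genes tested. Zfp36l2, which encodes a protein that binds AU-rich elements, was at 789, 661, 537 and 709 CPM in Ct 1 to 4, 402, 436, 456 and 525 CPM in ECH and 438, 428, 358 and 396 CPM in HF. Every iso-treated library was below every Ct library. Its log2 difference passed the FDR limit in HF, at -0.73 ± 0.14 (SE, FDR 0.0372, edgeR), but not the 2-fold limit, and was -0.57 ± 0.14 in ECH (FDR 0.105). Zfp36 (tristetraprolin) differed by -0.58 (FDR 0.232) in ECH and -0.44 (FDR 0.277) in HF, and Zfp36l1 by -0.77 (FDR 0.189) and -0.54 (FDR 0.278).

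Among 47 other interleukins and cytokines, 43 were in the count files, 28 had enough counts to be tested and none was called. At an unadjusted p under 0.05, 1 was higher and 3 were lower in ECH than in Ct, and the same numbers applied to HF. Of all genes tested, 11.9% and 16.1% reached that p in either direction, so these counts are descriptions. Mif, which encodes a cytokine stored in the cytoplasm, passed the FDR limit in HF against Ct with a log2 difference of 0.89 ± 0.16 (SE, FDR 0.0364, edgeR), below the 2-fold limit, and was at 72.5 CPM in Ct, 104 in ECH and 134 in HF on average. Ltb, a lymphotoxin gene of lymphocytes, differed by -2.11 ± 0.47 in ECH (FDR 0.0757) and -1.55 ± 0.46 in HF (FDR 0.151). B cell markers moved with Ltb. The 6 markers summed to 100 to 461 CPM in Ct, 36.1 to 82.0 in ECH and 50.7 to 77.4 in HF libraries, and their part in the level of Ltb was not tested. Tslp, an epithelial cytokine, differed by -1.62 ± 0.34 in ECH (FDR 0.0535).

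Apart from the B cell markers, whose Ct sums did not overlap those of ECH or HF, sums of markers of other cells that a heart digest can hold overlapped between groups. Markers of T and NK cells summed to 21.3 to 78.9 CPM in Ct, 12.8 to 41.8 in ECH and 17.1 to 33.9 in HF libraries, and dendritic cell markers to 117 to 239, 102 to 146 and 135 to 179 CPM. Over all libraries endothelial markers summed to 7.81 to 27.5 CPM, fibroblast markers to 28.0 to 419 CPM, cardiomyocyte markers to 43.2 to 180 CPM and mast cell and basophil markers to 0.822 to 38.6 CPM. Ly6C-high monocyte markers summed to 2162 to 5549 CPM in Ct, 4433 to 5368 in ECH and 4585 to 5619 in HF libraries. Resident Mφ markers summed to 4040 to 5405, 4434 to 6337 and 3812 to 4698 CPM, and Timd4 was the only one of them called, lower in ECH than in Ct. The part of these cells in the levels of the 8 genes was not tested.

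Over the 12 libraries, the genes with the most similar log2 levels were named for each cytokine gene, outside the 8 themselves. They were Nr4a1 (Pearson r = 0.93) and Dynll2 (0.92) for Il1b, Kdelr2 (0.90) and Srrt (0.88) for Il1a, Cstb (0.95) and Mrpl32 (0.94) for Il1rn, and Trem1 (0.91) for Il1r2. For the others they were Pts (0.90) and Oraov1 (0.88) for Il18, Tcp11 (0.88) and Ltc4s (0.86) for Il6, Trib1 (0.90) and Cxcl1 (0.89) for Tnf, and Tsacc (0.87) and Batf (0.87) for Il10. These values were the highest, or for Il1r2 among the highest, over all other genes tested, the points share 3 groups and 2 library sets, and they are given as a description.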

How the data were processed

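RNA of FACS-sorted Mφ from 12 mice was analysed, with 4 mice and 4 libraries per group. Reads had been trimmed with Trimmomatic, mapped to mm10 by TopHat2 and assigned to genes by featureCounts, per the submitters' processing notes. The deposited values are raw counts for each of 24445 gene symbols. Software versions, annotation and strand setting are not stated in the labels or methods. Genes with exactly 2 counts outnumbered those with 1 or 3 in every library, so counts may not be independent fragments. Library totals were 88466559 to 111180291.

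The main test was the quasi-likelihood test of edgeR 4.0.16 in R 4.3.3 (filterByExpr by group, TMM, 1 mean per group), over 14608 genes and all 12 libraries. P values are two-sided and adjusted by Benjamini-Hochberg over all genes, and calls needed an FDR under 0.05 with at least a 2-fold difference. Each fold change is on the log2 scale. Likeness used log2(CPM + 0.1). Groups came from the labels, and replicate numbers only name the mice. P values set a group difference against the spread between libraries within groups. That spread covers mice, library preparation and, in ECH, the 2 library sets. The alternatives were RLE scaling, the likelihood ratio test, DESeq2 1.42.0, voom of limma 3.58.1 with quality weights, other filters and thresholds, only the groups compared, a replicate block, the library set as a covariate or 1 set only, and leaving out libraries. Exon lengths and positions came from GENCODE M21. The main test was tried on simulated counts for ECH against Ct with 200 changed genes. The calling rule, with its 2-fold limit, recovered 27.5% of the 2-fold and 64.5% of the 4-fold changes. A gene that was not called is therefore not shown to be unchanged.

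All 8 cytokine genes, the receptor genes, and the genes called or with the largest difference in a list could be named. Receptor, maturation, signalling, decay, other cytokine, dissociation and cell type lists were used. The 8 genes and the lists were chosen with earlier results of these data known. Zfp36, Nlrp3, Irak2, Stat3, Mif, Ltb, Tslp, S100a8, Ly6g, Camp, Ltf, Ngp, Cx3cr1, Fcgr1, Adgre1, Csf1r and Cd14 were named after their values were seen. Some list and likeness results are not reported here.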

Additional observations from a re-analysis of the deposited data

Results flagged for a closer look

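In 3 of the 24 groups of 4 libraries examined for the 8 genes, 1 library stood apart from the other 3, with a gap to its nearest neighbour above Dixon's 95% critical value as a share of the range. Chance flags about 1 in 20 groups. Il1b was at 669 CPM in Ct 4, beside 1333 to 1357 CPM in the other Ct libraries. Il1r2 was at 79.6 CPM in HF 4, beside 11.4 to 18.8 CPM in the other HF libraries, and HF 4 also held the highest neutrophil marker sum of its group. Il18 was at 39.3 CPM in HF 3, beside 27.5 to 29.1 CPM in the other HF libraries.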

How the results depend on the processing

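With 0 of the 8 genes called in each comparison, DESeq2 and the likelihood ratio test each called 1 in ECH against Ct and 1 in HF against Ct (Il6 in all 4 cases). The library set as a covariate called 1 in HF against Ct and set B alone called 1 in ECH against HF (Il1rn in both). An unadjusted p under 0.05 with 2-fold called 1 (Il6) in ECH against Ct and 3 (Il1rn, Il1r2 and Il6) in HF against Ct, beside 3.71% and 5.12% of all genes. The replicate numbers did not pair the mice (correlations of same-numbered libraries of -0.08 to 0.08), and the replicate block called 0 of the 8 genes in each comparison, with an Il6 difference of -1.73 in ECH and -1.65 in HF and 22, 18 and 0 calls over all genes. Genes called over all alternatives numbered 1 to 542 in ECH against Ct, 15 to 748 in HF against Ct and 0 to 370 in ECH against HF.

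The directions of Il1b, Il1rn, Il1r2, Il6 and Il10 in ECH against Ct, of Il1a, Il1rn, Il1r2, Il6 and Tnf in HF against Ct and of Il1a, Il1b and Il1rn in ECH against HF held under every alternative. The signs that turned belonged to differences that were not called, and the cause was not tested. In ECH against Ct, Il18 turned to 0.21 with limma-voom and 0.015 with the replicate block, and Il1a to 0.72 with the set covariate and in set A alone. With the set covariate, HF against Ct turned to 1.01 for Il1b, -0.10 for Il18 and 0.22 for Il10. Il10 in ECH against HF turned to -0.31 with the set covariate and in set B alone. Without Ct 2 and HF 1, the libraries with the fewest genes, Il1a turned to 0.10 and Il18 to 0.26 in ECH against Ct, and Il1r2 to -0.17 and Il10 to -0.038 in ECH against HF. Without Ct 2 and HF 4, Il1a turned to 0.11 and Il18 to 0.27 in ECH against Ct, and Il10 to -0.13 in ECH against HF. Leaving out 1 library at a time gave ranges that crossed 0 for Il1a (-0.62 to 0.33), Il18 (-0.18 to 0.27) and Tnf (-0.0098 to 0.68) in ECH against Ct, and for Il18 (-0.084 to 0.37) in HF against Ct. In ECH against HF they crossed 0 for Il1r2 (-0.16 to 1.22), Il18 (-0.17 to 0.030), Il6 (-0.27 to 0.10), Tnf (-0.50 to 0.18) and Il10 (-0.16 to 0.28).

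The least counted of the 8 genes held at least 441 counts in every library, and whether each count is an independent fragment is not known. The spread between libraries, a coefficient of variation of 60.8% in the edgeR model, covers mice and library preparation together. Ct and HF share no library set, and the fit with the set as a covariate rests on 2 ECH libraries in each set.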
